A study of Mus musculus with 28 samples.

Results

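Osteoblast-like (OB-like) cells were examined in the 2 single-cell RNA sequencing (scRNA-seq) libraries made from 8-week-old mice. A cell was a member when it had at least 200 detected genes, when Bglap, Bglap2, Ifitm5, Ibsp and Car3 together held at least 0.5% of its transcripts (UMIs, unique molecular identifiers), and when it stayed below a ceiling of 1% for each of 2 other gene groups. The first ceiling group held the 7 marrow stromal genes Adipoq, Cxcl12, Lepr, Lpl, Hp, Kng1 and Esm1, and the second held the 5 cartilage genes Col2a1, Col9a1, Col9a2, Cnmd and Matn3. In all, 221 of 1775 cells at 8 weeks met the rule, out of 6245 cells deposited in the 4 scRNA-seq libraries of the series.

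One library came from Prx1-Cre mice and the other from Osx-Cre mice, each with 1 library and no replicate. Prx1-Cre is active in the limb bud mesenchyme that forms bone, cartilage and periosteum of the limbs, and Osx-Cre is driven by regulatory sequence of Sp7 (Osterix), a gene of osteoblast precursors and some cartilage cells. The GEO labels give these 2 libraries the genotypes PrxCre; Z24fl/fl and OsxCre; Z24fl/fl, whereas the methods of the study describe 8-week Prx1-Cre and Osx-Cre mice that carry the Rosa26-Ai9 reporter without the Z24 (Zmpste24) deletion. The floxed part is exon 6 and the counts come from the 3′ ends of transcripts, outside it, so Zmpste24 is no direct check of the deletion. In cells other than OB-like it was at 18.7 CPM (UMIs per 1000000 UMIs of the summed cells; exact 95% interval 12.0 to 27.9) in the Prx1-Cre library and 42.1 CPM (29.1 to 58.8) in the Osx-Cre library. In the 16-week libraries it was at 20.6 CPM (15.9 to 26.1) in the other cells of the control and 3.33 CPM (1.66 to 5.96) in those of the Zmpste24 conditional knockout. Both 8-week levels thus lay above that of the knockout, with intervals apart. OB-like cells at 8 weeks were at 11.0 CPM (2.26 to 32.1) and 47.3 CPM (23.6 to 84.7), from 3 and 11 UMIs. The libraries are called by their Cre line here, since the genotype of the 8-week mice was not settled.

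Marrow and digested bone were pooled, and cells positive for tdTomato (Ai9) and negative for CD45, Ter119 and CD31 were sorted. The gate therefore kept descendants of Cre-expressing cells and aimed to remove blood and endothelial cells. Where 16-week libraries are used below, they are the Prx1-Cre control (Z24fl/+) and the Prx1-Cre conditional knockout (CKO, Z24fl/fl), again with 1 library each. They are called by their titles. The methods of the study give 2068 cells to Z24fl/fl, whereas 2068 cells with 200 or more genes were in the control library and 2362 in the CKO library. Zmpste24 was lower in the library titled CKO, as given above.

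Osteoblasts are the cells that lay down bone. They secrete a matrix made mainly of type I collagen, add proteins such as osteocalcin, bone sialoprotein and osteonectin, and control its mineralization before some of them become buried as osteocytes. The lineage depends on the transcription factors Runx2 and Sp7, and osteocalcin is a marker of its late, matrix-mineralizing stage.

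Of the 5 genes that chose the cells, Bglap and Bglap2 encode osteocalcin, Ibsp encodes bone sialoprotein, Ifitm5 encodes a membrane protein of mineralizing osteoblasts, and Car3 encodes a carbonic anhydrase. Bglap lies on the reverse strand of chromosome 3 (chr3:88383501-88384464), with Bglap2 (chr3:88377736-88378699) and Bglap3 (chr3:88368616-88372743) beside it. The main transcripts of Bglap and Bglap2 have 440 and 471 bases and differ by 1 base in their last 200 bases, the end that 3′ sequencing reads. The split of UMIs among the 3 paralogs is therefore uncertain. Ibsp lies on chromosome 5 (chr5:104299171-104311469), on the same chromosome as Dmp1 (chr5:104202613-104214102) and Spp1 (chr5:104435118-104441050). These positions are those of GENCODE M21 on mm10.

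The members are described below through 3 genes that behaved differently among them, Bglap, Mmp13 and Spp1, and the 150 bases before the RefSeq start of each are shown with the core motif that Runx2 and its relatives bind. All 3 are read 5′ to 3′ on the strand of the gene from GRCm38.p6, and capitals mark each match to the core motif ACCACA, which was searched together with its reverse complement TGTGGT.
Bglap, chr3:88384467-88384616, reverse strand: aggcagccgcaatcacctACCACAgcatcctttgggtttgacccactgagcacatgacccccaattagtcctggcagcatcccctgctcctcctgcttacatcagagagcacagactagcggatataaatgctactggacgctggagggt
Mmp13, chr9:7272364-7272513, forward strand: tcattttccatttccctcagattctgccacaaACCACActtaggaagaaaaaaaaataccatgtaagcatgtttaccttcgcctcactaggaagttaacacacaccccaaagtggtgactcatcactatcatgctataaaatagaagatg
Spp1, chr5:104434961-104435110, forward strand: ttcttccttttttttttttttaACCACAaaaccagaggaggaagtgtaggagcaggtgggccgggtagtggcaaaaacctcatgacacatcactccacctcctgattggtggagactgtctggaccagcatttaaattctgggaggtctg
The match lies 132 to 127 bases before the start in Bglap, 118 to 113 in Mmp13 and 128 to 123 in Spp1. The same windows of Ibsp and Ifitm5 held no match. Of 32851 promoter windows of this length in the RefSeq table, 2759 (8.40%) held the motif on either strand. The table holds 2 starts for Spp1, of which the one shown lies nearest to the annotated gene start, and none was matched for Bglap2 or Car3.

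OB-like cells were 10.8% of the Prx1-Cre library (107 of 993 cells, exact 95% interval 8.92 to 12.9) and 14.6% of the Osx-Cre library (114 of 782 cells, 12.2 to 17.2). The difference was 3.80 percentage points, and the intervals overlapped. It was much smaller with a threshold of 2% for the osteoblast genes, as given below. All such intervals cover counting error only, and the Cre line, the mice and the library cannot be told apart with 1 library each. Without the 2 ceilings the shares were 53.6% and 53.5%, because 400 and 291 cells that passed the osteoblast threshold held 1% or more of marrow stromal genes only, 25 and 11 held that much of cartilage genes only, and 0 and 2 of both. No test was possible.

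**Figure D1:**
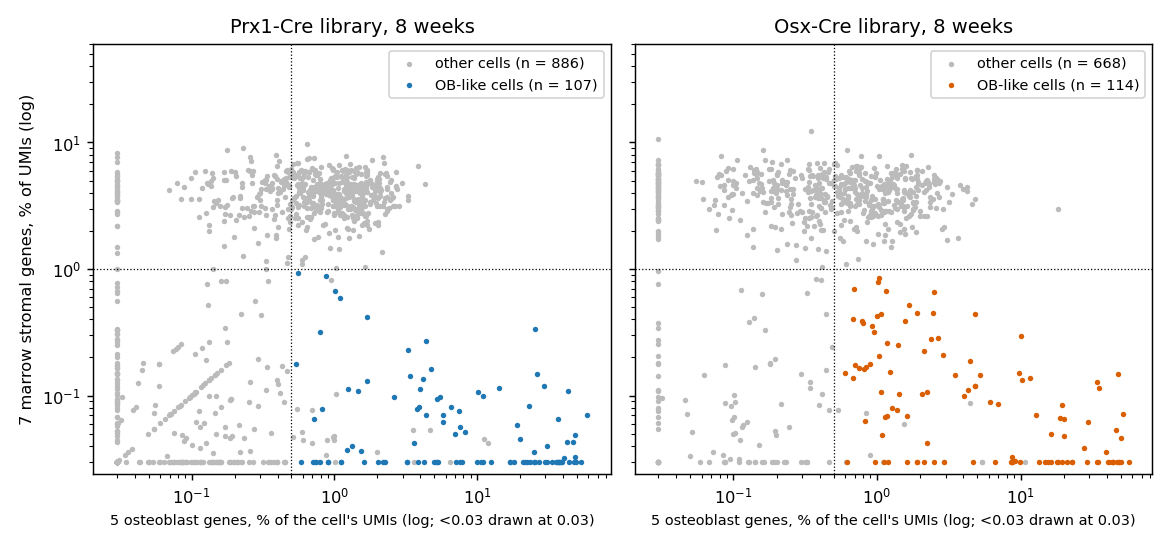
Each point is a cell with 200 or more genes, placed by the percent of its UMIs in the 5 osteoblast genes (x axis, log) and in the 7 marrow stromal genes (y axis, log), with values below 0.03 drawn at 0.03. Dotted lines mark 0.5% and 1%. Coloured OB-like cells (107 and 114) lie at the lower right and extend to 59.1% and 56.9% of UMIs, while many grey cells to the right of 0.5% lie above the marrow stromal ceiling.

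The 2 ceilings separated unlike cells on one side and close neighbours on the other. The member nearest to the osteoblast threshold had 0.535% in Prx1-Cre and 0.600% in Osx-Cre, and the nearest cell outside had 0.427% and 0.483%. For the marrow stromal ceiling these values were 0.923% and 0.843% inside and 1.02% and 1.10% outside. For the cartilage ceiling they were 0.883% and 0.981% inside against 1.59% and 2.02% outside, so a gap lay there. Members below 1% of osteoblast genes numbered 13 and 17, and rested on a median of 10 and 7 UMIs of those genes.

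OB-like cells lay between their neighbours in depth. The median was 1905 UMIs and 762 genes per cell in Prx1-Cre (507 to 9199 UMIs) and 1405.5 UMIs and 648.5 genes in Osx-Cre (485 to 7378 UMIs), against 902 and 854 UMIs in cells with 1% or more of marrow stromal genes and 3333 and 3188 UMIs in those with 1% or more of cartilage genes. All other cells together had medians of 999.5 and 897 UMIs. Summed, the members held 273180 and 232459 UMIs and the other cells 1280918 and 807816. Mitochondrial genes took 2.00% and 2.28% of the members' UMIs. Possible doublets were kept, and 15 and 12 members lay among the deepest 5% of cells of their library. The 2 libraries shared 4 cell barcodes, 1 of them on an OB-like cell.

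The share of transcripts spent on the 5 osteoblast genes varied widely among members. Its median was 7.12% in Prx1-Cre and 4.59% in Osx-Cre, and its maximum 59.1% and 56.9%. Bglap was at 129255 CPM in Prx1-Cre members and 103691 CPM in Osx-Cre members, and Bglap2 at 66945 and 54040 CPM. Bglap UMIs were found in 96 of 107 and 95 of 114 members, and 4 and 10 members had no UMI of Bglap or Bglap2. Ifitm5 was found in fewer members, 67 and 66, at 1483 and 1020 CPM, and Car3 in 77 and 76, at 3554 and 3050 CPM. Ibsp was the least restricted of the 5: it stood at 7658 and 7464 CPM in members, and at 4679 and 4968 CPM in the other cells of the same libraries. In cells with 1% or more of marrow stromal genes it was at 8403 and 6828 CPM, in Prx1-Cre above the members. Bglap in those other cells was at 1108 and 1001 CPM. These genes chose the cells, so their levels are given as a description.

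Members were divided into 3 bands by the same share, below 2%, from 2% to below 10%, and 10% or more. In Prx1-Cre 25, 35 and 47 cells fell in these bands, and in Osx-Cre 41, 32 and 41. Ibsp, the gene shared with marrow stromal cells, made up 237 of 461 osteoblast gene UMIs of the lowest band in Prx1-Cre and 458 of 755 in Osx-Cre, and 1.26% and 1.57% of those of the top band. The top band thus held 43.9% of Prx1-Cre members and 36.0% of Osx-Cre members (exact 95% intervals 34.3 to 53.9 and 27.2 to 45.5). At 16 weeks the same rule found 138 cells in the control (6.67%) and 130 in the CKO (5.50%), of which 9.42% and 10.8% were in the top band (5.11 to 15.6 and 6.01 to 17.4). These top-band intervals at 16 weeks did not overlap those at 8 weeks, but age, genotype and library differ together between these ages and cannot be told apart.

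**Figure D2:**
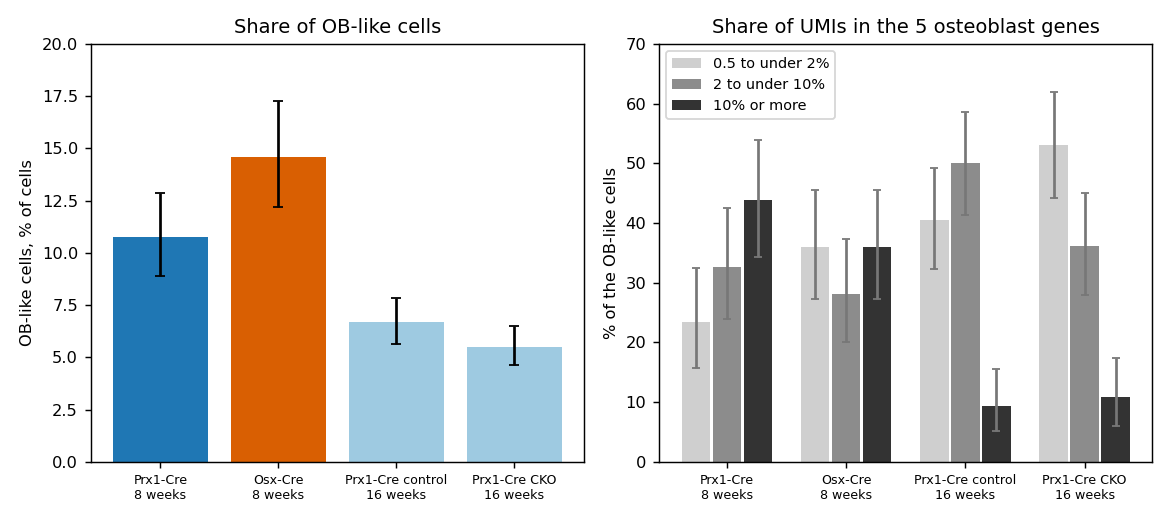
Left, OB-like cells as percent of the cells with 200 or more genes in each library. Right, percent of the OB-like cells of each library in the 3 bands of osteoblast gene share. Bars are shares and error bars exact 95% binomial intervals. The top band is 43.9% and 36.0% at 8 weeks and 9.42% and 10.8% at 16 weeks.

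OB-like cells were then compared with all other cells of the same library, gene by gene, as CPM of summed UMIs. A gene was called when it differed by at least 2-fold in the same direction in both libraries. Among 5378 genes with at least 20 UMIs in each library, 86 were called higher (1.60%) and 1017 lower (18.9%). The median gene was lower in members by 0.61 (Prx1-Cre) and 0.56 (Osx-Cre) on the log2 scale. When the 5 osteoblast genes, 20.9% and 16.9% of all UMIs of the members, were left out of the totals, it was lower by 0.28 and 0.30. A level that reads as lower is therefore to be set against these shifts. Because each Cre line is a single library, no p-value belongs to any of these values.

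Of 14 bone matrix genes tested, 10 were called higher and none lower, with median log2 folds of 2.43 in Prx1-Cre and 2.84 in Osx-Cre. Col1a1, the α1 chain of type I collagen (chr11:94936224-94953042), was at 48312 CPM (47492 to 49144) in Prx1-Cre members against 656 CPM in other cells, a 73.7-fold difference. In Osx-Cre it was at 45294 CPM (44433 to 46168) against 486 CPM, or 93.1-fold. Col1a2, the partner chain, was 32.1-fold and 26.4-fold higher. Sparc (osteonectin), a matrix protein that binds collagen and calcium, was at 36613 and 29622 CPM against 17315 and 13659 CPM and was called. Its level in cells with cartilage genes, 35266 and 35225 CPM, was near that of Prx1-Cre members and above that of Osx-Cre members, while cells with marrow stromal genes had 2915 and 3115 CPM. Serpinf1, which encodes the secreted factor PEDF and is mutated in a brittle bone disease, was 12.9-fold and 19.5-fold higher. Col5a2, a fibril-initiating collagen, was 10.5-fold and 10.6-fold higher. One of the 10 calls was Bglap3, at 76.9 and 232 CPM against 4.68 and 8.67 CPM, whose UMIs may be those of the paralogs that chose the cells. The tested members of this list that were not called were Col11a1, Col11a2, Col12a1 and Omd.

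Genes of mineralization gave 4 called higher of 7 tested, with median log2 folds of 1.83 and 2.27. Dmp1, an acidic matrix phosphoprotein of late osteoblasts and osteocytes, had the largest smaller-of-both fold outside the rule. It stood at 421 CPM (348 to 505) against 3.12 CPM in Prx1-Cre and at 731 CPM (626 to 850) against 6.19 CPM in Osx-Cre, folds of 135 and 118. Its 115 and 170 UMIs came from 28 and 31 cells. Smpd3, a neutral sphingomyelinase needed for normal mineralization, was at 3053 and 2865 CPM against 314 and 394 CPM. Tmem119, a membrane protein of osteoblast differentiation, was 22.8-fold and 23.8-fold higher, and Fam20c, the kinase of secreted phosphoproteins, was also called. Alpl, the tissue-nonspecific alkaline phosphatase, reached 337 and 409 CPM against 228 and 191 CPM and was not called. Cartilage cells, which also use this enzyme, were part of that comparison, and their part in the missing call was not tested.

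Dmp1 is shared with the osteocyte list, on which the classical markers Sost, Fgf23 and Mepe were near absent. Others were detected in members, such as Phex with 12 and 7 UMIs, Dkk1 with 10 and 8, and Pdpn with 8 and 4. Sost (sclerostin) and Fgf23 had no UMI in any cell of either library, and Mepe had 2 and 1 UMIs in members. Fbln7 was called lower and Sgms2 higher, so of 3 genes tested on this list 2 were higher and 1 lower. Sclerostin, a secreted Wnt inhibitor, was thus not detectable at this depth, where a count of 0 was put at 3 UMIs, or 11.0 and 12.9 CPM.

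Osteogenic transcription factors were higher to a smaller degree, with 3 of 7 tested called higher and median log2 folds of 1.25 and 0.92. Creb3l1 (OASIS), a membrane-bound factor that promotes Col1a1 transcription, was at 223 and 327 CPM against 34.4 and 29.7 CPM. Mef2c, a factor of bone and muscle cells, was at 549 and 671 CPM against 231 and 275 CPM. Neither lineage regulator reached 2-fold in both libraries. Runx2 was at 143 and 189 CPM in members and 92.1 and 110 CPM in other cells. Sp7 was at 135 and 103 CPM against 51.5 and 54.5 CPM, and was called when the 5 osteoblast genes were left out of the totals, which brought the list to 4.

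Another 4 genes of the 10 named by the size of the smaller fold lay outside these lists. Cadm1, an adhesion molecule, was at 505 and 508 CPM against 18.7 and 22.3 CPM. Wisp1 (Ccn4), a matricellular protein of the Wnt-responsive CCN family, was at 373 and 348 CPM against 16.4 and 23.5 CPM. Kazald1, a secreted protein with an IGF-binding domain, was 12.0-fold and 17.4-fold higher. Cpz, a carboxypeptidase that binds Wnt proteins, was the fourth. It was at 377 CPM (308 to 457) and 262 CPM, against 5.46 CPM and 3.71 CPM (0.766 to 10.9) from 7 and 3 UMIs. At 16 weeks, all 10 genes were again at least 2-fold higher in OB-like cells in both the control and the CKO library.

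Machinery for making collagen was not raised to the degree of collagen itself. Of 16 genes of collagen folding and processing, 2 were called higher, Bmp1 (the procollagen C-proteinase) and Lox (the cross-linking enzyme), and the median log2 folds were 0.16 and 0.05. Serpinh1, the collagen chaperone HSP47, was at 5030 and 5141 CPM against 3628 and 4507 CPM. The 16 genes summed to 9675 and 9421 CPM in members and 5206 and 5871 CPM in cells with marrow stromal genes. Cells with cartilage genes, part of the comparison, had more, at 10894 and 13823 CPM. Of 18 genes of the endoplasmic reticulum and secretion none was called higher, and Hspa5 (BiP) and Pdia6, both folding factors, were lower. Over all 5378 tested genes 1.60% were called higher and 18.9% lower, so these 18 genes did not stand out by their counts. With the 5 osteoblast genes left out of the totals, 3 of 16 and none of 18 were higher, and 1 of the 18 was lower. The median of the endoplasmic reticulum list, −0.03 in Prx1-Cre and −0.45 in Osx-Cre, then became 0.30 and −0.19.

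**Figure D3:**
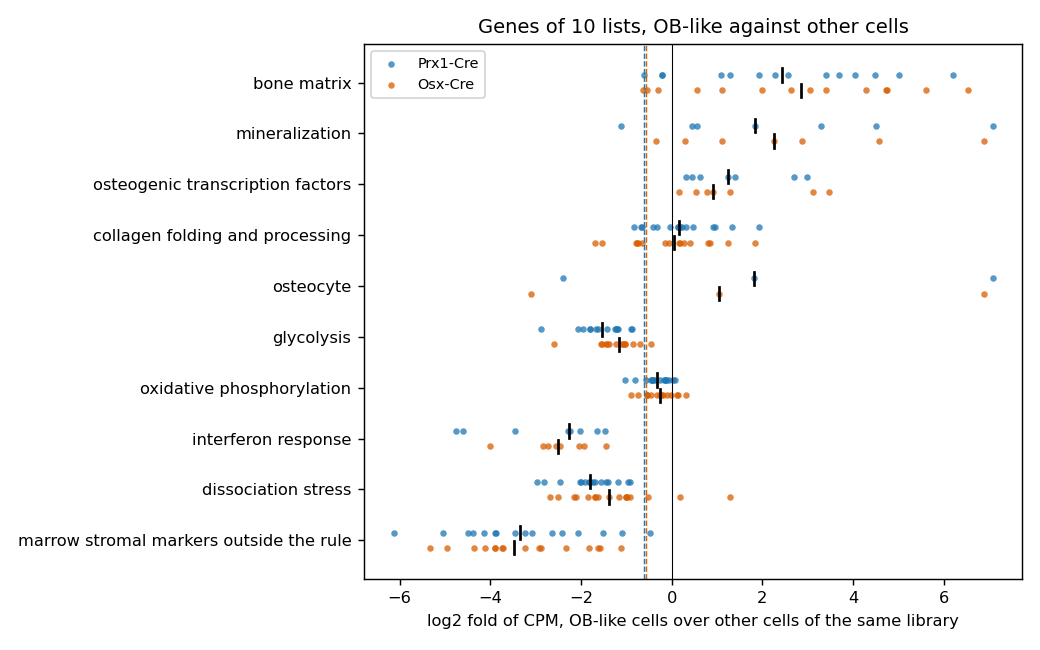
Tested genes of 10 lists, each a point at its log2 ratio of CPM in OB-like cells over other cells of the same library (x axis). Black ticks are list medians, and dashed lines the medians of all 5378 tested genes (−0.61 and −0.56). Bone matrix genes have medians of 2.43 and 2.84, and marrow stromal markers outside the rule lie at −3.34 and −3.48.

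Share of cells with a transcript was compared after thinning each cell to 500 UMIs. Col1a1 was then found in 87.9% of Prx1-Cre members (80.1 to 93.4; 92.5% unthinned) and in 77.9% of Osx-Cre members (69.1 to 85.1; 83.3% unthinned, 1 shallower cell left out). In cells with 1% or more of cartilage genes, which should hold little type I collagen mRNA, it was found in 11.5% and 7.1% (35.9% and 33.8% unthinned). Those cells had median depths of 3333 and 3188 UMIs before thinning. Dmp1 was found in 13.1% and 15.9% of thinned members (26.2% and 27.2% unthinned) against 1 of 156 and 0 of 70 thinned cartilage cells, the latter allowing up to 5.1%, so it was carried by a minority of members at this depth. Runx2 was found in 15.9% and 8.8% of thinned members (31.8% and 26.3% unthinned), against 3.2% and 1.4% of cartilage cells. This contrast leaves out the marrow stromal cells, and against all other cells Runx2 was not called, as given above. The share of Prx1-Cre members with Runx2 was lower when cells were thinned further, as given below.

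Of 15 tested genes of the BMP, TGF-β, IGF and FGF pathways 3 were called higher and 8 lower. Bmp3, an inhibitory BMP ligand made by osteoblasts, was at 69.6 and 120 CPM against 1.56 and 3.71 CPM, from 19 and 28 UMIs. Bambi, a decoy receptor, was at 567 and 512 CPM against 89.0 and 71.8 CPM, and the receptor Fgfr1 was also called. Among the lower genes, Bmp4 (a bone-inducing ligand) had 2 and 4 UMIs in members, or 7.32 and 17.2 CPM against 122 and 224 CPM. Igfbp4 and Igfbp5, which bind insulin-like growth factors, were at 135 and 219 CPM against 1643 and 2228 CPM, and at 194 and 94.6 CPM against 1842 and 2399 CPM.

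Pth1r, the receptor for parathyroid hormone, was not called. It was at 560 and 830 CPM against 901 and 1235 CPM, with cartilage cells, which use the same receptor, among the latter. The part of those cells in the missing call was not tested. Of 19 Wnt pathway genes only 5 had enough UMIs to be tested, of which the secreted Wnt antagonists Sfrp1 and Sfrp4 were lower and none was higher. Wif1, another secreted Wnt antagonist, had the most UMIs of this list in members, 65 and 102 from 30 and 45 cells, and was not called. The Wnt receptor genes Fzd1 (4 and 2 UMIs), Lrp6 (6 and 7), Lrp5 (9 and 6) and Fzd8 (1 and 0) had too few UMIs in members for a direction to be read. Of 5 genes tested for parathyroid hormone and cAMP signalling 2 were lower, Pde4b and Nr4a1, and 1 with the 5 osteoblast genes left out of the totals.

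Signals by which stromal cells govern osteoclasts were mostly low in members. Of 5 tested genes 3 were called lower and none higher. Csf1, the macrophage growth factor, was at 47.6 and 86.0 CPM against 190 and 260 CPM. Il34, the other ligand of its receptor, was at 11.0 and 8.60 CPM, from 3 and 2 UMIs, against 229 and 318 CPM. Ccl2, a monocyte chemokine, had no UMI in members and was at least 25.6-fold and 7.48-fold lower, with 3 UMIs taken as the limit in each library. Tnfsf11 (RANKL) was at 3.66 and 21.5 CPM against 35.9 and 27.2 CPM and Tnfrsf11b (osteoprotegerin) at 7.32 and 30.1 CPM against 51.5 and 28.5 CPM. Neither was called, since the difference passed 2-fold in Prx1-Cre alone. There Tnfsf11 rested on 1 UMI in members and Tnfrsf11b on 2 UMIs of 1 cell, against 5 and 7 UMIs in Osx-Cre members. The difference between libraries was not tested.

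Of 16 marrow stromal markers outside the rule 15 were called lower. Their sum was 652 CPM in Prx1-Cre members and 1024 CPM in Osx-Cre members, against 8565 and 13320 CPM in other cells, with Apoe the most abundant. Il7 and Pparg had no UMI in members of either library. Of 14 chondrocyte markers outside the rule, all were detected in members, 13 were tested and 12 were lower. Their sum was 1724 and 1622 CPM against 16858 and 15048 CPM, and its most abundant gene was Col11a2, a collagen chain that was not called. These 2 lists follow the direction of the ceilings, so their counts describe the choice of cells.

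Pericyte markers summed to 76.9 and 38.7 CPM, with no UMI of Rgs5 or Myh11 in members and 4 of 4 tested genes lower. Cells with at least 3 UMIs and 0.5% of their UMIs in this list were 3 of 107 and 0 of 114 members, and 2.03% and 2.69% of other cells. Myeloid markers summed to 29.3 and 30.1 CPM from 8 and 7 UMIs, with no UMI of Ptprc, which encodes the CD45 of the gate. Endothelial markers summed to 43.9 and 60.2 CPM from 12 and 14 UMIs, of which Pecam1 (CD31) made 8 and 13, while Cdh5 had none. Lymphoid markers had no UMI in members. Erythroid markers summed to 271 CPM in members of each library against 305 and 308 CPM, with Hbb-bs, the most abundant, at 87.9 and 94.6 CPM against 116 and 111 CPM. Of 5 tested, the haemoglobin gene Hba-a1 was called lower, at 36.6 and 47.3 CPM against 98.4 and 105 CPM, though not with the 5 osteoblast genes left out of the totals. The erythroid gene called higher, Car2, encodes a carbonic anhydrase that bone cells also make. Osteoclast markers had 83 and 31 UMIs in members, 73 and 26 of them from Ctsk, while Calcr, Ocstamp, Dcstamp and Atp6v0d2 had none.

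Periosteal and fibroblast markers differed from these lists, since members were rich in 2 matrix proteoglycans on it. Of 14 such genes 5 were tested, with 1 called higher (Lum) and 2 lower (Prg4 and Anxa8). Lum (lumican) was at 2808 and 1420 CPM against 916 and 413 CPM, and Dcn (decorin) at 5648 and 3648 CPM against 3133 and 411 CPM. Col3a1, a fibrillar collagen of fibroblastic tissue, was at 538 and 181 CPM against 424 and 137 CPM. Cells with at least 3 UMIs and 0.5% of their UMIs in this list, of which Dcn was the most abundant gene, were 71.0% and 40.4% of members and 15.7% and 2.99% of other cells, at their own depths. Igfbp6 had 22 and 2 UMIs in members and Prg4 25 and 0. The other genes of the list had few, with 11 and 1 for S100a4, 5 and 0 for Ly6a (Sca1) and none for Pi16 and Thy1.

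The 10 genes with the largest fall by the rule for named genes came from both neighbouring types. Fxyd2, Scrg1, Col27a1 and Col9a3 were highest in cells with cartilage genes, and the other 6 in cells with marrow stromal genes. Col9a3, a chain of type IX collagen, was at 32.9 and 51.6 CPM against 2695 and 2340 CPM. Against marrow stromal cells alone, Scrg1 and Fxyd2 were not lower in Prx1-Cre, at log2 ratios of 0.90 and 0.07. Epas1 (HIF-2α), AW112010, Kng2, Igfbp3, Dpep1 and Rtp4 had 1 to 5 UMIs in members of either library. Epas1 was at 3.66 CPM (0.0927 to 20.4) and 4.30 CPM against 126 and 146 CPM. At 16 weeks all 10 were again at least 2-fold lower in the control, whereas in the CKO 7 were, with Scrg1 higher by 0.55 and Fxyd2 and Col27a1 lower by 0.19 on the log2 scale. The ceilings exclude the cells rich in these genes at both ages, so this recurrence in part restates the rule. Cells over the cartilage ceiling only, above and below the osteoblast threshold, numbered 5 and 9 in the CKO and 20 and 37 in the control. Their part in the CKO exceptions was not tested.

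Immediate-early genes were lower in members beyond the general shift, and glycolysis genes were too, to a degree that depended on the scaling. Of 17 immediate-early and stress genes, a set that dissociation of tissue can induce, 12 were called lower and none higher, with median log2 ratios of −1.79 and −1.37. Junb was at 538 and 804 CPM against 2964 and 2582 CPM. Of 14 glycolysis genes 10 were lower (medians −1.53 and −1.16), such as Eno1 at 132 and 155 CPM against 507 and 457 CPM. With the 5 osteoblast genes left out of the totals these counts were 9 of 17 and 4 of 14, and 685 of all 5378 genes were lower (12.7%). Of 16 genes of oxidative phosphorylation none was called in either direction, with medians of −0.31 and −0.25 that turned to 0.01 in both libraries when the 5 genes were left out. All 8 tested interferon-response genes were lower under each of the 3 scalings, with Iigp1, a GTPase of cell-autonomous immunity, at 3.66 and 8.60 CPM against 99.1 and 137 CPM. The marrow stromal cells that the ceiling leaves out were part of that comparison, and their part in these 8 calls was not tested.

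Dividing cells were scarce. Mki67 had 1 and 2 UMIs in members, and of 5 tested proliferation genes 4 were lower, with a summed level of 271 and 232 CPM for the list against 832 and 397 CPM. Only 1 member of each library (0.93% and 0.88%) held 3 or more UMIs and at least 0.5% of its UMIs in proliferation genes, both in the lowest band. Among other cells 2.48% did so in Prx1-Cre and 0.60% in Osx-Cre, so by this measure members were not lower in Osx-Cre. Of 16 genes that the study names for its cell groups, 14 were tested, 2 were higher and 7 lower. With the 5 osteoblast genes left out of the totals, 4 were higher and 6 lower. That list was picked on these samples and is not independent evidence.

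The members were not uniform, and the bands ordered them from high Mmp13 and Spp1 to high collagen. For this comparison CPM were taken outside the 5 osteoblast genes, so that their share does not press down all others. Of 793 genes tested between the lowest and the highest band, 29 were at least 2-fold higher in the highest band in both libraries (3.66%) and 48 lower (6.05%), and the median gene differed by −0.11 and −0.06 on the log2 scale. With totals over all genes, 10 were higher and 144 lower.

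Bone matrix genes rose with the share: 9 of 12 tested were higher in the top band and 1, Spp1, was lower. Bglap3, also on this list, had no UMI in the lowest bands and 20 and 52 in the top bands. Its UMIs may be those of the paralogs that set the bands, so its rise may restate the rule. Col1a1 stood at 19014, 46404 and 89641 CPM in the 3 bands of Prx1-Cre, and at 17545, 45361 and 93374 CPM in those of Osx-Cre. These sums rest on unlike cells. The median lowest-band member had 0.195% and 0.112% of its UMIs in Col1a1, with maxima of 5.60% and 17.4%, against medians of 4.05% and 3.07% in the middle band and 5.33% and 6.93% in the top band. Sparc stood at 19988, 44137 and 59091 CPM and at 15434, 35694 and 52934 CPM. On this scale both genes thus stepped up at each band in both libraries, with Poisson intervals that did not touch. Over all UMIs Col1a1 still rose at each band. Sparc in Prx1-Cre instead fell, from 41785.5 CPM (40349 to 43260) in the middle band to 38823 CPM (37843 to 39823) in the top band. Its median share per cell in these bands was 3.12% and 3.08%. In Osx-Cre the Sparc intervals of these bands overlapped over all UMIs. Cpz went from 116 to 735 CPM and from 80.0 to 493 CPM between the outer bands, and Bambi from 278 to 954 CPM and from 224 to 1026 CPM. Col11a1 and Col11a2, minor fibrillar collagens, were higher in the top band by at least 4.49-fold in each library although neither separated members from cartilage-containing other cells. Snhg18 (a noncoding RNA), Col1a2, Tram1 (a protein of translocation into the endoplasmic reticulum) and Cpe (a carboxypeptidase) complete the 10 named genes that were higher. In Prx1-Cre, Tram1 in the lowest band rested on 2 UMIs.

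Among the 10 named genes that were lower in the top band, Mmp13, the collagenase of bone remodelling (chr9:7272514-7283331), fell from 5125 CPM (4471 to 5847) to 456 and then 29.8 CPM (6.15 to 87.1) in Prx1-Cre. In Osx-Cre it fell from 7341 CPM (6685 to 8045) to 1791 and then 123 CPM (56.3 to 234). Folds between the outer bands were 59.6 in Osx-Cre and, from only 3 UMIs in the top band, 172 in Prx1-Cre. After thinning to 500 UMIs, Mmp13 was found in 56.0% of lowest-band and 2.1% of top-band members in Prx1-Cre (60% and 6.4% unthinned) and in 67.5% and 9.8% in Osx-Cre (73.2% and 9.8% unthinned).

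Spp1 (osteopontin), a matrix phosphoprotein that osteoclasts attach to, fell from 31281 to 17356 and 3359 CPM in Prx1-Cre and from 66694 to 51534 and 10633 CPM in Osx-Cre. Tnc (tenascin-C) fell from 765 to 99.4 CPM and from 1999 to 123 CPM between the outer bands. Serpine2, a protease inhibitor, fell from 4406 to 368 CPM and from 9596 to 479 CPM. S100a6, Igfbp7, H2-K1 and Ifitm3 were lower by 3.58-fold or more in each library. Chad and Tubb5 complete the 10, but in Osx-Cre a single cell held 47 of the 50 Chad UMIs of the lowest band. For Tubb5 a single cell held 26 of 34 lowest-band UMIs in Osx-Cre and 19 of 37 in Prx1-Cre. With bands set at 1% and 5%, Tubb5 was higher in the top band of Osx-Cre, by 0.67 on the log2 scale.

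**Figure D4:**
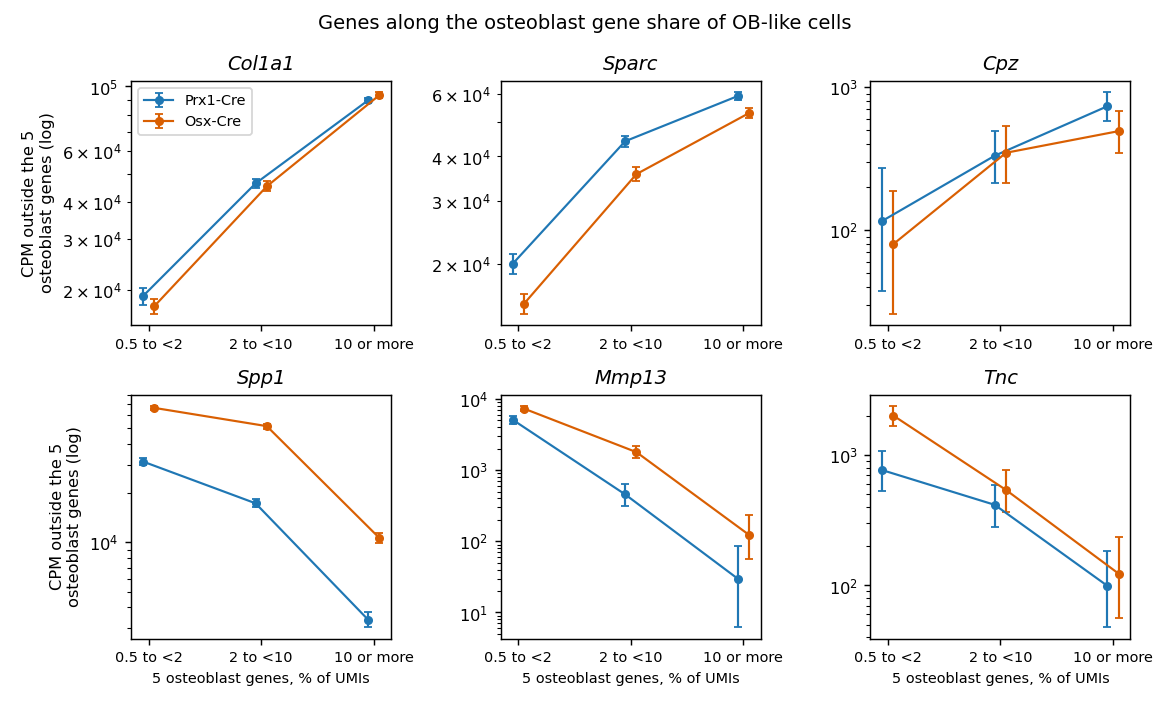
CPM outside the 5 osteoblast genes (y axis, log) of 6 genes in the 3 bands of osteoblast gene share (x axis, percent of UMIs) in OB-like cells of Prx1-Cre (blue) and Osx-Cre (orange) mice. Points are summed levels and error bars exact 95% Poisson intervals. Col1a1, Sparc and Cpz rise from the lowest to the highest band, and Spp1, Mmp13 and Tnc fall, as Mmp13 does from 5125 to 29.8 CPM and from 7341 to 123 CPM.

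Of the transcription factors, Runx2 was lower in the top band (371 to 99.4 CPM and 320 to 82.1 CPM), and of 3 tested none was higher. Among the 10 genes of the osteoblast precursor list tested against other cells, Mmp13, Postn and Mmp16 were higher. Of the 4 tested between bands 3 were lower in the top band, namely Mmp13, Tnc and the membrane protease Mmp14. Marrow stromal genes also ran toward the low band: Apoe stood at 1043 and 752 CPM in the lowest band and 199 and 219 CPM in the highest, and Ebf1 at 348 and 560 CPM against 89.4 and 137 CPM. Of the members in the lowest band, 5 of 25 and 7 of 41 held at least 3 UMIs and 0.5% of their UMIs in marrow stromal markers outside the rule, against 0 of 47 and 0 of 41 in the top band. Their part in the fall of Mmp13 and Spp1 was not tested. In cells with 1% or more of marrow stromal genes, thinned to 500 UMIs, Mmp13 was found in 16.0% and 20.7% (21.1% and 28.5% unthinned), against 56.0% and 67.5% of thinned lowest-band members. Spp1 was found in 67.2% and 73.9% of those cells (77.4% and 82.7% unthinned), against 68.0% and 95% of thinned lowest-band members (76.0% and 97.6% unthinned).

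The gradient was present at 16 weeks in libraries that had no part in naming these genes, although only 13 and 14 cells made up the top band there. All 10 genes higher in the top band at 8 weeks were higher in both 16-week libraries. In each library 9 of them passed 2-fold, the exceptions being Cpe in the control (1.99-fold) and Tram1 in the CKO (1.25-fold). Of the 10 lower genes, 9 were lower in the control and 10 in the CKO, 8 by at least 2-fold in each. H2-K1 and Tubb5 did not pass 2-fold in either library, and Tubb5 was at 0.01 on the log2 scale in the control. Mmp13 went from 7727 to 264 CPM in the control and from 7236 to 46.4 CPM in the CKO, and Spp1 from 83720 to 17437 CPM and from 94437 to 464 CPM.

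OB-like cells of the 2 Cre lines were compared last. Of 2508 genes with at least 20 UMIs over both, 161 were at least 2-fold higher in Osx-Cre (6.42%) and 83 lower (3.31%), and 88 differed by 2-fold with intervals apart (3.51%). The lean toward Osx-Cre was absent within the top band, and the counts moved with other alternatives given below. The median log2 ratio was 0.05. Col1a1 was at 45294 against 48312 CPM. Of the 5 mineralization and 7 transcription factor genes with enough UMIs to be tested, none passed 2-fold.

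The most abundant gene to differ was Spp1, at 34032 CPM (33286 to 34790) in Osx-Cre and 10773 CPM (10387 to 11170) in Prx1-Cre. It was higher in Osx-Cre in each band, and the log2 ratio of 1.66 was 1.79 when the cell with most Spp1 UMIs was left out of each library. In other cells it was alike, at 4090 and 4402 CPM. Of 10 osteoblast precursor genes 4 were higher in Osx-Cre, namely Mmp13 (2456 against 941 CPM), Tnc (710 against 267 CPM), Limch1 and Kcnk2, and 2 lower, Aspn and Thbs1. All of the 4 higher genes had their highest level in the lowest band of both libraries, and the lowest band held 36.0% of Osx-Cre and 23.4% of Prx1-Cre members. Within bands, Mmp13 was also higher in Osx-Cre, at 7254 against 5070 CPM of all UMIs in the lowest. The part of band size in the difference was not tested.

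Periosteal and fibroblast genes lay on the Prx1-Cre side. Of 5 tested, 3 were lower in Osx-Cre: Col3a1 at 181 against 538 CPM, Igfbp6 at 8.60 against 80.5 CPM, and Prg4 at 0 UMIs against 25, of which 12 lay in 1 cell. The same 3 genes were also lower in the other cells of the Osx-Cre library, at 137, 6.19 and 584 CPM against 424, 322 and 1723 CPM. Free RNA from such cells was not tested as a part of the difference. Of 16 bone matrix genes tested, 2 were higher in Osx-Cre, Spp1 and Bglap3, whose reads are uncertain among the paralogs, and 2 lower, Omd and Ostn. Ostn rested on 1 cell, which held 15 of its 17 Prx1-Cre UMIs.

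Genes named by fold between the Cre lines were mostly of low count, and for 3 of these 20 most UMIs came from a single cell. Of the 41 Pcolce2 UMIs in Osx-Cre members 37 lay in 1 cell, as did 61 of 72 Mia UMIs. Of the 38 Mustn1 UMIs in Prx1-Cre members 36 lay in 1 cell. Without the top cell of each library the log2 ratio was −0.07 for Pcolce2 and −0.29 for Mia, so neither difference held.

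On the Osx-Cre side, Fbln5 (an elastic fibre protein) was at 116 CPM (76.5 to 169) against 18.3 CPM (5.94 to 42.7), with UMIs in 14 and 3 cells. Nrp1, a semaphorin and VEGF co-receptor, was at 112 against 22 CPM, with UMIs in 20 and 4 cells. Trf (transferrin), Fcer1g, H2-Q7 (a class I histocompatibility gene) and S100b were 3.29-fold to 4.53-fold higher, each from 27 to 35 UMIs. Rps27rt, a copy of a ribosomal protein gene, was at 1312 against 300 CPM and AY036118 at 478 against 139 CPM, but both also differed in the other cells, by 2.99-fold and 2.53-fold. Those 2 genes thus separated the libraries and not the OB-like cells alone, and reads of Rps27rt are uncertain between gene copies.

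On the Prx1-Cre side, Pdgfrl, a relative of the PDGF receptors, was spread over many cells. It was at 183 CPM (136 to 241) against 34.4 CPM (14.9 to 67.8), with UMIs in 28 and 7 cells. Fmod (fibromodulin) and Aspn (asporin), small proteoglycans of collagen fibrils, were at 121 against 21.5 CPM and at 260 against 64.5 CPM, in 12 and 10 Prx1-Cre cells. 1500015O10Rik was at 388 against 21.5 CPM, with 44 of its 106 UMIs in 1 cell. Mt2 (a metallothionein), Abi3bp, Adk, Mrps28 and Itm2a were 3.16-fold to 8.08-fold lower in Osx-Cre. Aspn and Itm2a were also lower in the other cells of that library, by 2.61-fold and 2.59-fold.

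**Figure D5:**
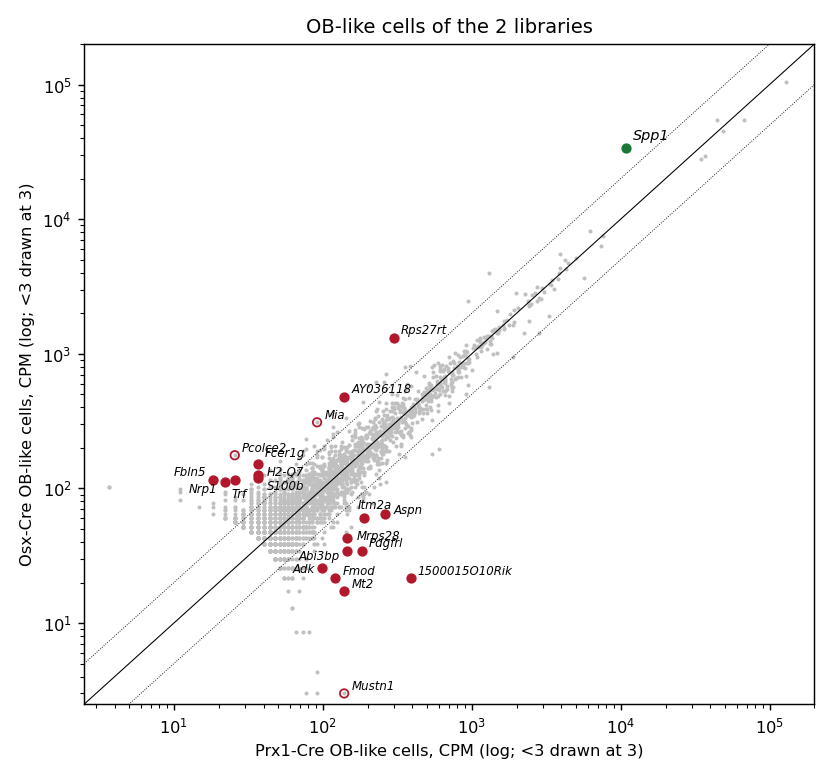
Summed CPM of each of 2508 genes in OB-like cells of the Prx1-Cre (x axis, log) and Osx-Cre (y axis, log) libraries, with values below 3 drawn at 3. The solid line is equality and dotted lines are 2-fold. Red marks the 20 named genes, with open circles for Pcolce2, Mia and Mustn1, whose UMIs came mostly from a single cell. Spp1, in green, lies at 10773 and 34032 CPM.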

How the data were processed

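The scRNA-seq libraries of 8-week and 16-week mice were read, of which the 2 at 8 weeks carry the comparisons, and the bulk RNA-seq and ATAC-seq samples were not used here. The authors deposited whole-number UMI counts per gene and cell from 10x Genomics 3′ v2 libraries, aligned to mm10 with Cell Ranger (3.1.0 in the file headers), already filtered to cells. UMIs of 31053 features were summed over cells and divided by the summed total (CPM). Intervals are exact Poisson for CPM and Clopper-Pearson for shares, at 95%. With 1 library per Cre line, genes were called by a fold of 2 with no test. A group at 0 was put at 3 UMIs. Doublets were kept and no doublet caller was run. Leaving out the deepest 5% of cells gave OB-like shares of 9.76% and 13.7%, and the comparisons of genes were not repeated without them. Named genes were the up to 10 per direction with the largest fold (the smaller of both libraries) with at least 50 UMIs in the higher group (30 between bands), or, between Cre lines, at least 30 UMIs and intervals apart. Within lists, some of the members with most UMIs, the defining markers of other cell types and genes the study names were also named. Other genes named, and the check for single cells that hold most UMIs of a gene, were chosen after their values were seen. The members and all lists were chosen with earlier results of these data known. The scripts were tested on simulated data, where genes with few UMIs in OB-like cells could be missed as lower. Python 3.11.15, numpy 2.4.6, scipy 1.17.1, pandas 2.3.3 and matplotlib 3.10.9 were used. The values of 1 called gene of the transcription factor list are not reported here.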

Additional observations from a re-analysis of the deposited data

Results flagged for a closer look

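Gsn, which encodes the actin-severing protein gelsolin, differed from the other cells in opposite directions in the 2 libraries. In Prx1-Cre it was lower in OB-like cells by a log2 ratio of −1.28, at 725 CPM (627 to 833) against 1763 CPM (1691 to 1837). In Osx-Cre it was higher by 1.41, at 654 CPM (554 to 766) against 246 CPM (213 to 283). Cells with 1% or more of marrow stromal genes had 286 and 166 CPM and those with 1% or more of cartilage genes 302 and 306 CPM, so OB-like cells lay above both of these groups in each library. The other cells also held 160 cells in Prx1-Cre and 39 in Osx-Cre that were below the osteoblast threshold and both ceilings. Of the 2258 Gsn UMIs of the other cells in Prx1-Cre, 156 lay in the marrow stromal group and 158 in the cartilage group. Most of them thus lay in the remaining cells, whereas in Osx-Cre these 2 groups held 85 and 79 of 199. The part of the remaining cells in the opposite directions was not tested. Gsn was the single gene of 5378 tested to pass 2-fold in opposite directions with intervals apart in both, and 8 did so without regard to intervals. The difference between libraries was not tested.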

How the results depend on the processing

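No paired analysis was possible because each Cre line is 1 library. Depth limits genes of few UMIs, and shares near 0.5% of UMIs rest on few transcripts. The share of OB-like cells was 8.26% and 9.34% with a 2% threshold and 53.6% and 53.5% without ceilings, where the difference reversed to −0.12 points. Without a minimum of UMIs, 202 genes were higher against other cells, and 988 higher and 632 lower in Osx-Cre against Prx1-Cre. With a minimum of 50, the counts were 52 higher and 514 lower, 31 higher and 25 lower, and between bands 19 higher and 12 lower. Against marrow stromal cells alone, an alternative added after seeing the data, 131 genes were higher, and Fxyd2 (0.073 in Prx1-Cre) and Scrg1 (0.90 and 0.0026) reversed on the log2 scale. Between Cre lines, 69 genes were higher with the 2% threshold, 95 with 10 CPM added, and 177 lower with each cell weighted equally. Within the top band, also added, 43 were higher and 46 lower. Mia and Pcolce2 reversed with the 2% threshold (−1.14 and −0.37) and without the top cell of each gene (−0.29 and −0.067), the latter added. Between bands, limits of 1% and 5% gave 51 higher and turned Tubb5 to 0.67 in Osx-Cre, totals over all genes gave 10 higher and 144 lower, and equal weight per cell, added, gave 113 lower. Thinning to 1000 UMIs gave 92.0% of Osx-Cre cells with Col1a1 and 22.4% of Prx1-Cre cells with Dmp1, and to 400 UMIs 5.61% of Prx1-Cre cells with Runx2. The causes were not tested. No other named gene reversed under the alternatives run, but Fbln5 gave no value with the 2% threshold and Mustn1 none without its top cell. Within the top band several of the genes named between Cre lines also gave no value.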

Other observations

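Genes of limb position and of the nuclear envelope were also counted against the other cells. Over all 5378 tested genes 1.60% were called higher and 18.9% lower. With so few genes tested on these 2 lists, their counts are not read as a trait of the members. Of 17 positional genes 7 were tested, with Hoxa9 alone called, lower at 14.6 and 21.5 CPM against 50 and 59.4 CPM. Prrx1, the gene behind the Prx1-Cre driver, was at 84.2 and 55.9 CPM in OB-like cells against 113 and 125 CPM in other cells and was not called. Of 10 lamin and nuclear envelope genes 4 were tested and none was called. Lmna was at 143 and 163 CPM against 179 and 115 CPM, and Zmpste24, which matures its product, at 11.0 CPM (2.26 to 32.1) and 47.3 CPM (23.6 to 84.7).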
